A study of Mus musculus with 19 samples.

Results

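Within 1 h of bacterial particles reaching the lung, 84 protein-coding transcripts of mouse lavage cells stood at no more than 1/4 of their unexposed level in both genotypes examined. They were chosen by the measured values themselves. A transcript was a member if it averaged at least 5 TPM (a share of all transcripts in the library, scaled for transcript length) in both unexposed groups and if its mean TPM after exposure was at most 1/4 of the unexposed mean in ICAM-1 null and in wild type mice. Of 56941 genes in the deposited table, 9030 were protein-coding and reached the unexposed floor of 5 TPM. Of these, 97 lay at or under 1/4, and 13 were set aside by symbol (zinc finger and Krüppel-like factor names, and Hhex, Bmf, Arrdc3, Adra2a, Icam5 and Angptl4), which left 84. Since exposed and naive levels chose the members, their difference on exposure is described here without a test.

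RNA came from cells rinsed from the airspaces of female mice aged 7 to 8 weeks, which the labels call alveolar macrophages, the resident phagocytes of the lung airspace. The 4 groups were ICAM-1 null exposed (n = 5), wild type (C57Bl/6J) exposed (n = 5), ICAM-1 null naive (n = 5) and wild type naive (n = 4). Exposed mice received 100 µL of Staphylococcus aureus pHrodo bioparticles at 2.27 mg/mL by oropharyngeal aspiration under isoflurane and were lavaged 1 h later with PBS containing 2 mM EDTA. pHrodo is a dye that brightens in acid compartments, and ICAM-1 is an adhesion molecule bound by leukocyte integrins. The labels do not state a vehicle or anaesthetic for naive mice, nor the genetic background of the null line. An effect of ICAM-1 loss and one of any other difference between the 2 lines therefore cannot be told apart, and the same holds for exposure to the particles and to the aspiration procedure. The labels name no sort of the lavage cells. In such bulk RNA, fewer cells of a type and less RNA per cell cannot be told apart.

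As background, the level of an mRNA can drop quickly only when its existing copies are degraded quickly, since stopping synthesis alone leaves the stock in place. Short-lived mRNAs often encode regulators such as transcription factors, signalling inhibitors and growth arrest proteins. In macrophages that sense bacteria, genes of the resting state are known to be repressed while cytokine genes are induced.

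Total estimated counts ran from 32.8 to 80.3 M per library. Icam1 stood at 9.48 to 13.2 TPM in null exposed, 722 to 1079 TPM in wild type exposed, 4.88 to 11.5 TPM in null naive and 63.8 to 85.9 TPM in wild type naive libraries. The 15 alveolar macrophage markers summed to between 26479 and 36542 TPM in every library, so the labelled cell type was present throughout. No member was a marker of the 6 cell types listed (alveolar macrophage, neutrophil, epithelial, lymphocyte, red cell, dendritic cell).

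The median member kept 17.7% of its naive TPM in null exposed mice and 21.1% in wild type exposed mice. The range was 4.86% to 24.9% in null mice and 0.595% to 24.8% in wild type mice. Both lower ends belong to Gm28036 alone, a predicted gene that overlaps Cpne1, Rbm12 and Nfs1 on the same strand and stood at 0.226 TPM in 1 null naive library. The next lowest were Ccdc166 at 9.13% in null and Pwwp4a at 10.9% in wild type mice. Over all 9030 genes at the naive floor the median gene kept 74.1% in either genotype, a log2 TPM ratio of -0.43, against a median of -2.50 for members in null and -2.25 in wild type mice. TPM values are shares of all transcripts, and scaling of the counts by TMM (trimmed mean of M-values, which centres most genes) moved the floor genes' median to -0.08 in null and -0.05 in wild type mice. On that scale the members' median log2 fold change on exposure was -2.13 in null (from -3.94 to -1.57) and -1.90 in wild type mice (from -6.99 to -1.53), and all 84 lay below 0. The lowest values on that scale were again those of Gm28036, followed by -3.41 (Pram1) in null and -2.81 (Pwwp4a) in wild type mice. Only 27 of the 84 (32.1%) would also lie at or under 1/4 by TMM-scaled CPM (read counts per library size). Over all 20501 genes tested with edgeR, 23.4% were called lower and 21.4% higher on exposure in null mice, and 20.2% lower and 20.1% higher in wild type mice.

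In each genotype, every exposed library lay below every naive library for 83 of the 84 transcripts, a count that the choice of members largely fixes. The same held for 54.5% of the 9030 floor genes in TPM in either genotype. The exceptions were Gm28036 in null mice and Pram1 in wild type mice. Summed over the 84 transcripts, TPM ran from 391 to 728 in null exposed, 504 to 1119 in wild type exposed, 3236 to 3502 in null naive and 3739 to 3896 in wild type naive libraries.

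Markers of other cells also moved with exposure. By edgeR, 12 of 18 epithelial markers were higher and 1 lower in null exposed mice and 14 were higher in wild type exposed mice, each against naive mice of the same genotype. Their sums were 861 to 1527 TPM in null exposed and 582 to 832 TPM in null naive libraries, and 1407 to 3835 TPM in wild type exposed and 702 to 909 TPM in wild type naive libraries. Of 6 dendritic cell markers 5 were higher in null and 4 in wild type mice, and of 5 tested red cell markers 0 in null and 5 in wild type mice. Lymphocyte markers (12 tested) were higher for 2 in null and 5 in wild type mice, and neutrophil markers (9 tested) for 3 in null and 4 in wild type mice, with 1 lower in each. Of the 15 alveolar macrophage markers, 6 were higher and 2 lower in null and 10 higher and 3 lower in wild type mice. The part of these shifts in the members' drop was not tested.

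The most abundant member was Txnip, which encodes thioredoxin-interacting protein, a brake on glucose uptake and on thioredoxin. It stood at 54.9, 68.4, 112, 90.5 and 47.3 TPM in null exposed libraries, 129, 221, 178, 83.8 and 132 TPM in wild type exposed libraries, 612, 595, 479, 598 and 791 TPM in null naive libraries and 780, 838, 749 and 637 TPM in wild type naive libraries. Every naive library lay above every exposed one. Next came Gadd45g, a growth arrest and DNA damage gene, with 56.9, 60.8, 85.3, 87.8 and 59.2 TPM in null exposed, 64.4, 116, 86.3, 55.4 and 84.2 TPM in wild type exposed, 359, 340, 553, 364 and 336 TPM in null naive and 339, 333, 342 and 314 TPM in wild type naive libraries. Null naive library 3 stood apart above the others for this gene, and exposed and naive libraries did not overlap. Cdc42ep3, an effector of the small GTPase Cdc42 that acts on the actin cytoskeleton, had 24.3, 23.6, 33.4, 31.9 and 18.4 TPM in null exposed, 30.8, 53.5, 39.0, 18.9 and 34.4 TPM in wild type exposed, 215, 206, 233, 203 and 137 TPM in null naive and 220, 194, 218 and 238 TPM in wild type naive libraries.

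**Figure D1:**
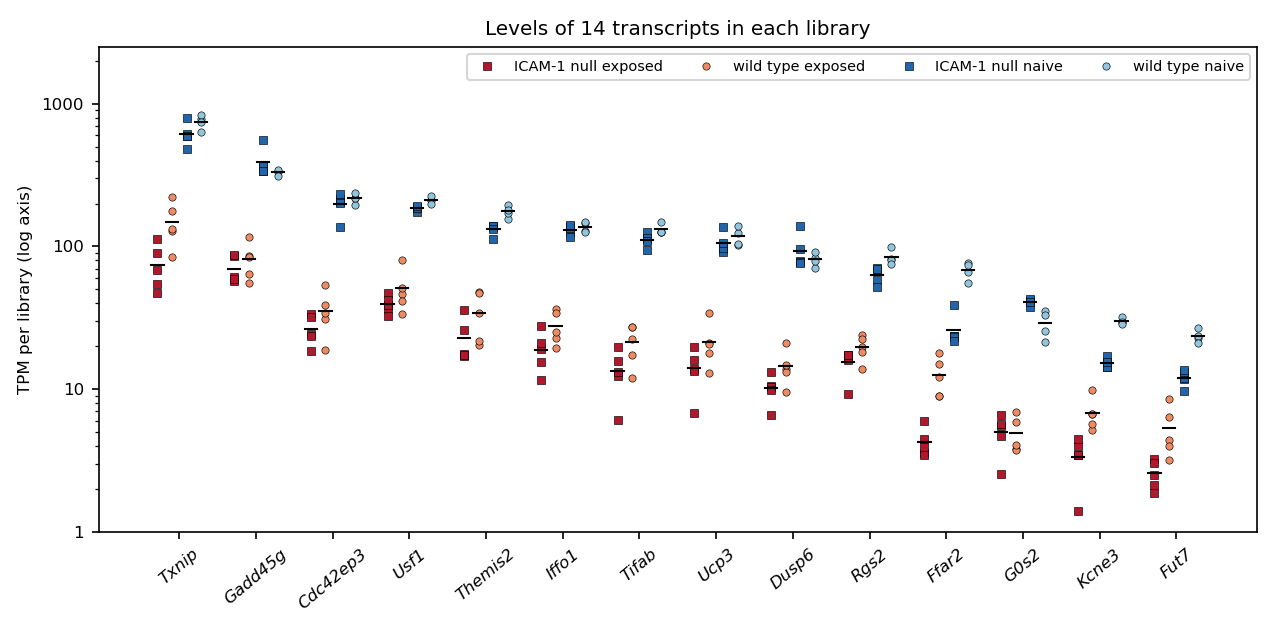
TPM in each library (log axis) of 14 of the named transcripts in the order null exposed, wild type exposed, null naive, wild type naive; short lines are group means. For each of the 14 the exposed libraries lie below the naive ones of the same genotype, as with Txnip at 47.3 to 112 TPM in null exposed and 479 to 791 TPM in null naive libraries.

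The window around the transcription start is shown for 3 members, one with both a TATAAA box and an E-box and a high naive level (Gadd45g), the immune receptor gene Cd300lb, described under genotype, and one rich in GC boxes (Cdc42ep3). The sequences are RefSeq's on build GRCm38.p6, run from 250 bases before to 50 bases after the start, and are given 5′ to 3′ on the gene's strand. Capitals mark, on either strand, the letters TATAAA of the core promoter box of that name, CACGTG as the E-box, and GGGCGG as the GC box. Gadd45g lies at chr13:51846425-51846724 on the plus strand, Cd300lb at chr11:114934322-114934621 on the minus strand and Cdc42ep3 at chr17:79355042-79355341 on the minus strand.
Gadd45g: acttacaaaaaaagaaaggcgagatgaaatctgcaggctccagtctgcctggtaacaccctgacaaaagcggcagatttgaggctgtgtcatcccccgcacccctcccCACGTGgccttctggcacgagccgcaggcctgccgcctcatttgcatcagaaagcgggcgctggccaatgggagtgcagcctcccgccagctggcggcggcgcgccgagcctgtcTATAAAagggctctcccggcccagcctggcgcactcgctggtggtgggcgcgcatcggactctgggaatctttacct
Cd300lb: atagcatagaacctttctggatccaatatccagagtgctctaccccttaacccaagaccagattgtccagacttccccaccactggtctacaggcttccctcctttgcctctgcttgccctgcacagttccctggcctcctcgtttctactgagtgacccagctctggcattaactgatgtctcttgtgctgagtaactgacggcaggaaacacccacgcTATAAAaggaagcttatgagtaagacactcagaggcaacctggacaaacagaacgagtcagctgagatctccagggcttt
Cdc42ep3: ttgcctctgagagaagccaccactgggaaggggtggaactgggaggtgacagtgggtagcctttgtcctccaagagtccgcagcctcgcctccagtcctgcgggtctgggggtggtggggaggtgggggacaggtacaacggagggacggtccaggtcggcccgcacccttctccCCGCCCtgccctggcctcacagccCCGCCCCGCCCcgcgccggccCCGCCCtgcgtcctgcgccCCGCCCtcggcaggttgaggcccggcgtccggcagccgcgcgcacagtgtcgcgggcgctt
The TATA box begins at -27 from the start in Gadd45g and at -30 in Cd300lb, the E-box of Gadd45g at -142, and Cdc42ep3 holds 5 GC boxes, of which a pair overlaps. Promoter windows were matched by symbol for 63 of the 84 members (79 windows). TATAAA was in 11.4% of members' windows, 6.55% of the 9310 windows of floor genes and 13.6% of all 32544 windows in the table. GGGCGG was in 46.8%, 64.3% and 35.9% in the same order, and CACGTG in 8.86%, 10.7% and 7.17%. The median GC content was 57.0% in members' windows and 61.0% in those of floor genes, and the median number of CpG was 13 and 21. Counted by window, members' promoters were therefore poorer in CpG and GC boxes than those of floor genes, with no test made. Some members, such as Ffar2, Il16 and Pram1, held several windows, in part overlapping, so shares counted by gene can differ.

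Roles were assigned by hand after the members were known, and floor genes were not given roles. The role counts therefore have no share of floor genes beside them. Signalling adaptors and G protein or phosphatase regulators made up 12 members, with a median of 14.2% of the naive level left in null and 18.9% in wild type mice. Dusp6, the phosphatase that switches off the kinase ERK, was among the members with least left, at 10.8% in null and 17.8% in wild type mice. It had 10.6, 10.4, 13.1, 9.93 and 6.63 TPM in null exposed, 13.9, 21.1, 13.1, 9.48 and 14.7 TPM in wild type exposed, 140, 78.8, 95.9, 77.2 and 76.3 TPM in null naive and 83.5, 70.2, 91.1 and 79.5 TPM in wild type naive libraries. Tifab, an inhibitor of the adaptor TIFA and so of TRAF6 signalling, kept 12% in null (13.4 ± 5.01 TPM exposed against 112 ± 11.7 naive, SD, n = 5 each) and 16.1% in wild type mice (21.3 ± 6.55 TPM exposed, n = 5, against 132 ± 11.4 naive, n = 4). Rgs2, which speeds the shut-off of G protein signals, kept 24.3% and 23.2% in null and wild type mice. Its null exposed library 5 held 9.25 TPM, apart from 16.1 to 17.4 TPM in the other 4.

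Themis2, a scaffold protein in macrophage and B cell receptor signalling, was the fifth most abundant member. It averaged 22.7 ± 8.13 TPM in null exposed and 34.2 ± 13.2 TPM in wild type exposed (SD, n = 5 each), against 132 ± 11.3 TPM in null naive (n = 5) and 176 ± 16.8 TPM in wild type naive mice (n = 4). Arhgap25, a GTPase-activating protein for Rac in phagocytes, kept 16.3% in null and 18.4% in wild type mice. Itpka, a kinase of inositol trisphosphate, kept 21.7% and 22.5%. These regulators act on different pathways, and the naive means of the 12 ranged from 5.84 to 208 TPM.

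Transcription and chromatin proteins were the largest named role, with 15 members. Usf1, a helix-loop-helix factor that binds E-boxes, had 36.4, 38.9, 47.1, 42.3 and 32.5 TPM in null exposed, 46.2, 80.9, 51.3, 33.7 and 41.6 TPM in wild type exposed, 190, 174, 185, 186 and 191 TPM in null naive and 210, 211, 199 and 225 TPM in wild type naive libraries. Naive values lay within a narrow band, and wild type exposed library 2 was the highest exposed one. Tfap4, another E-box-binding factor, kept 20.0% in null and 21.1% in wild type mice. Zbtb45 and Zbtb8a, zinc finger proteins with a BTB domain, kept 15.2% and 21.4% in null mice and 18% and 24.0% in wild type mice. Cbx8, a Polycomb reader of histone methylation, stood lower, at 12.2% in null and 16.0% in wild type mice. The paralogs Pwwp4a and Pwwp4b on chromosome X kept 10.9% and 10.8% in null mice and 10.9% and 13.0% in wild type mice. These near-identical copies may share reads, so their values are uncertain as separate measures.

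Members of DNA repair and damage response numbered 7. Mbd4, a glycosylase that removes mismatched thymine at methylated CpG, had 2.08, 2.13, 2.82, 2.46 and 1.47 TPM in null exposed, 1.82, 4.12, 2.30, 0.955 and 1.22 TPM in wild type exposed, 17.7, 16.7, 14.9, 18.8 and 17.1 TPM in null naive and 12.3, 12.2, 12.6 and 15.5 TPM in wild type naive libraries. It kept 12.9% in null and 15.8% in wild type mice, with no overlap of exposed and naive libraries. Casp2, a caspase linked to DNA damage, kept 17.1% and 19%.

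Energy and lipid metabolism supplied 8 members, which were short genes with a median span of 4.21 kb. Besides Txnip they included Ucp3, a mitochondrial carrier of the uncoupling protein family, with 13.9, 13.3, 19.8, 16.1 and 6.79 TPM in null exposed, 17.8, 34.3, 21.1, 13.0 and 20.7 TPM in wild type exposed, 95.4, 90.9, 97.6, 105 and 136 TPM in null naive and 102, 104, 125 and 140 TPM in wild type naive libraries. G0s2, an inhibitor of the triglyceride lipase ATGL and the shortest member by span (1.06 kb), kept 12.3% in null (4.99 ± 1.53 TPM exposed against 40.6 ± 1.91 naive) and 16.9% in wild type mice (4.90 ± 1.47 exposed against 28.9 ± 6.44 naive). Slc25a45, a mitochondrial carrier protein, kept 24.1% and 24.0%, close to the threshold. Txnip, Ucp3 and G0s2 each overlap another expressed gene on the other strand, and reads of the strands cannot be told apart where the counting ignored strand.

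Receptors and surface proteins, counted together with the cytokine gene Il16, numbered 8. They held 3 G protein-coupled receptors, 6.38% of the 47 such genes at the naive floor, where members were 0.93% of the floor genes as a whole. Ffar2, the receptor for short-chain fatty acids, is described below with its genotype difference. Cnr2, the cannabinoid receptor of immune cells, kept 18.3% in null and 21.3% in wild type mice, from naive means of 34.9 ± 5.22 TPM in null (n = 5) and 31.0 ± 1.81 TPM in wild type mice (n = 4). Adora3, an adenosine receptor, kept 20.4% and 24.6%. Il16, which encodes a cytokine that signals through CD4, spans 103 kb and kept 14.3% in null and 17.8% in wild type mice.

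Ubiquitin ligases and adaptors numbered 4, among them Fbxo32 (atrogin-1), an F-box protein known as a FOXO target in muscle, which kept 16.7% in null and 23.2% in wild type mice. Rnf144b, a RING-type ligase and the longest member at 125 kb, kept 18% and 20.1%, and Klhl33, a Kelch protein, 21.6% and 18.6%. Membrane traffic held 4 members, among them the small GTPase Rab19, which kept 17.8% in null and 18.4% in wild type mice. Glycan enzymes held 4 members, and 22 members had another or no known role. Among these, Prr33 kept 9.91% in null and 14.5% in wild type mice, Ccdc166 kept 9.13% and 13.1%, and Iffo1, a nuclear intermediate filament family gene, kept 14.4% and 20.2%. Iffo1 overlaps Gapdh on the other strand. Provisional symbols were carried by 8 members.

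By classes set from gene symbols, 60 of 84 members (71.4%) fell in no class, against 73.9% of floor genes. DNA-binding transcription regulators were 4.76% of members and 2.78% of floor genes, a class from which zinc finger names had been left out by the rule. Small GTPase and G protein regulators were 4.76% and 2.41%, kinases and phosphatases 2.38% and 3.47%, and the ubiquitin system 3.57% and 3.49%. G protein-coupled receptors, at 3 members, were 3.57% and 0.52%. Chromatin proteins were 2.38% and 1.98%, immune surface receptors 1.19% and 1.88%, and transporters and channels 2.38% and 2.96%. Cell cycle and growth arrest genes were 1.19% and 1.63%, and apoptosis genes 1.19% and 0.543%. RNA-binding and decay proteins were 1.19% and 4.10%. The 1 member placed there by symbol was Wdr5b, which the roles above count under transcription and chromatin. Of TGF-beta, BMP, WNT and Notch signalling no member was found. Each of these classes held 4 or fewer members, and no test of the shares was made.

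Members shared short gene spans and few exons, neither of which the rule had used. The median member spanned 11.8 kb of genome (quartiles 4.78 and 22.6 kb), against 22.3 kb (9.84 and 48.8 kb) for floor genes. Spans under 10 kb were held by 48.8% of members and 25.4% of floor genes, and spans under 5 kb by 26.2% and 11.3%. With floor genes ordered by span and split into 4 equal bins, members made up 1.82% of the bin of shortest genes (41 members), and 0.975%, 0.62% and 0.31% of the following bins (22, 14 and 7 members). The members' median number of exons was 5, against 9 for floor genes in GENCODE M21 models, and 42 members lay in the lowest of 4 such bins by exons (1.87% of its genes).

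The mature transcripts were of ordinary length. The median was 2721 bases for members and 2817 bases for floor genes, the coding part 1167 and 1323 bases and the 3′ untranslated part 915 and 889 bases. The relative transcript length implied by counts per TPM had a median of 0.954 for members and 1 for floor genes. Short span thus went with fewer exons more than with a shorter mRNA.

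Span and level are linked, so both were set side by side. Members had lower naive levels than floor genes (median 16.6 against 29.9 TPM), and 38 of 84 lay in the lowest of 4 equal bins of naive level. Within that bin the median span was 11.9 kb for members and 29.2 kb for the other floor genes. In the following bins it was 12.7 against 28 kb (19 members), 8.83 against 22.0 kb (16 members) and 7.83 against 14.2 kb (11 members). Members were thus shorter at each level. Across all 9030 floor genes, Spearman's rho between span and the log2 TPM ratio was 0.03 in null and 0.11 in wild type mice, a weak relation over genes that share libraries.

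Short span was not particular to transcripts that dropped. The 192 protein-coding genes with at least 5 TPM in both exposed groups and at least 4 times their naive level in both genotypes had a median span of 12.7 kb and 6 exons. The 1006 floor genes at or under 1/2 but not 1/4 in both genotypes had 17.4 kb and 8 exons, between members and the whole. The 3′ untranslated parts differed more. The AU-rich heptamer TATTTAT, written as DNA, a motif of unstable cytokine mRNAs, was in 17.1% of members (14 of 82 with a 3′ untranslated part), 26.3% of floor genes and 45.8% of the 192 induced genes. The pentamer ATTTA occurred at a median of 0.891, 1.32 and 2.20 per kb in the same order.

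**Figure D2:**
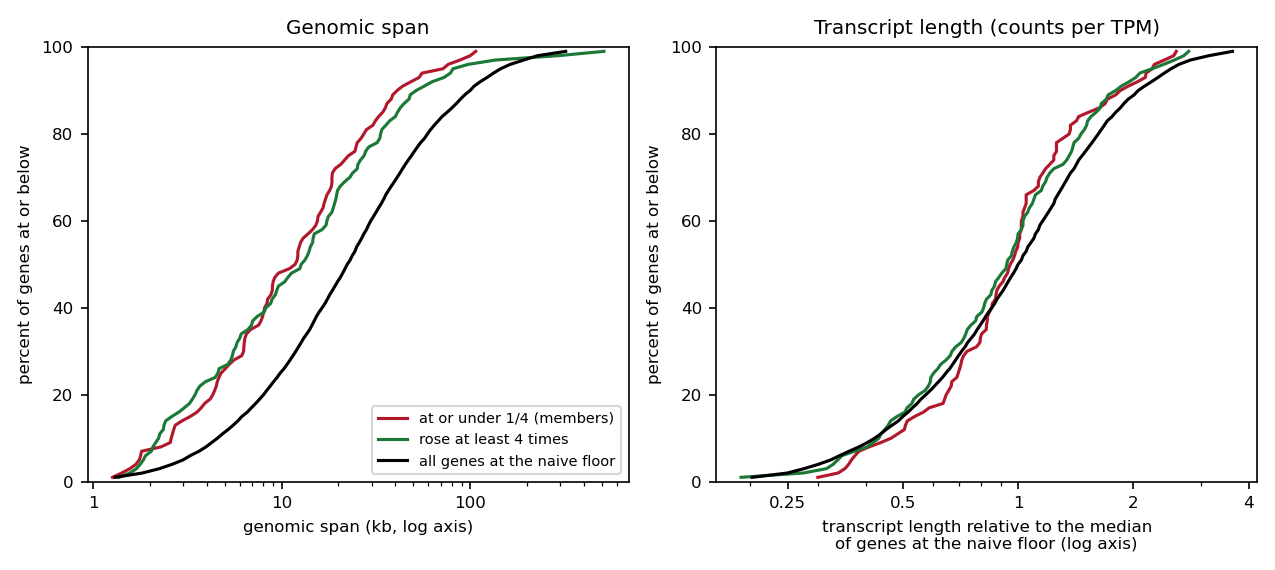
Cumulative percent of genes (y axis) by genomic span in kb (left, log axis) and by transcript length relative to the median floor gene (right, log axis) for members (84), genes at least 4 times higher after exposure (192) and all genes at the naive floor (9030). The members' span curve lies left of the floor genes' curve (medians 11.8 and 22.3 kb) while the transcript length medians are 0.954 and 1.

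Members lay on each of chromosomes 1 to 19 and on X, with 15 (17.9%) on chromosome 7, which holds 7.65% of floor genes. On build GRCm39, neighbouring members within 100000 bases were Nectin4, Usf1 and Tstd1 on chromosome 1 (171197667 to 171247920), Iffo1 and Vamp1 on chromosome 6, Spata2l and Vps9d1 on chromosome 8 and the Pwwp4 copies on chromosome X. Usf1 (171238881 to 171246710) and Tstd1, a thiosulfate sulfurtransferase-like gene (171246440 to 171247920), overlap on the same strand and may share reads. Another gene with at least 1 TPM in naive cells overlapped 9 members on the same strand, 25 on the other and 32 on either. The predicted gene Gm28036 is one of these, with 0.226 TPM in null naive library 3 against 12.7 to 16.3 TPM in the other null naive libraries.

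The level left varied from mouse to mouse, and most members varied together. The median member stood at 15.7, 16.1, 22.4, 19.5 and 13.0% of the naive mean in null exposed libraries 1 to 5 and at 16.4, 28.4, 23.1, 14.4 and 18.1% in wild type exposed libraries 1 to 5. Wild type exposed library 2 was the highest of its group for 63 of 84 members and library 4 the lowest for 49. In null exposed mice, library 3 was the highest for 45 members and library 5 the lowest for 52. The median floor gene stood at 74.4, 72.1, 76.9, 73.4 and 72.8% of the naive mean in null exposed libraries 1 to 5. In wild type exposed libraries 1 to 5 it stood at 70.4, 77.1, 80.1, 73.7 and 67.2%. How many floor genes were highest or lowest in each library was not counted. The induced cytokine gene Tnf, as a mark of the response, had 9903, 8957, 5716, 7487 and 6810 TPM in null exposed and 10113, 6676, 8634, 9223 and 9465 TPM in wild type exposed libraries. Its lowest value in each genotype was in the library where most members were highest. The libraries where most members were lowest did not hold the highest Tnf, with 6810 TPM in null library 5, the second lowest of its group, and 9223 TPM in wild type library 4.

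**Figure D3:**
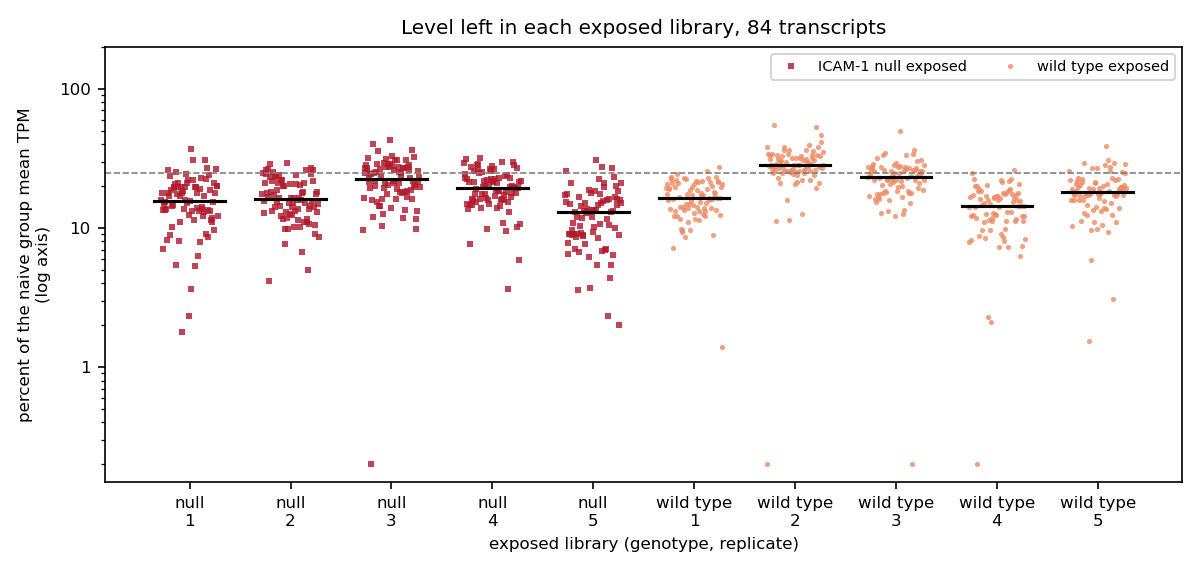
Level of each of the 84 transcripts in each exposed library as percent of the naive group mean of its genotype (y axis, log scale), null libraries on the left and wild type libraries on the right; thick lines are medians, the dashed line is 25%, and values under 0.2% are drawn at 0.2%. Wild type library 2 has the highest median, 28.4%, and null library 5 the lowest, 13.0%.

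A smaller share was left in null than in wild type mice for 67 of 84 members (79.8%), against 4620 of 9030 floor genes (51.2%). This count rested on a single library, which also held the most red cell marker RNA of its group (828, 2399, 370, 2275 and 1084 TPM in wild type exposed libraries 1 to 5). Library 4 of that group, with 2275 TPM of the same markers, was the lowest for 49 of 84 members. The part of red cells in the count was not tested. Without wild type exposed library 2 it was 42 of 84, against 4252 of the floor genes, with medians of 17.7% left in null and 17.9% in wild type mice, and without any other exposed library it ran from 58 to 72. The interaction test (the log2 change of null minus that of wild type mice) called 0 members lower and 0 higher with edgeR, where 0.151% of all genes were called lower and 0.18% higher. DESeq2 and limma also called 0 in either direction, where DESeq2 called 0.629% of all genes lower and 0.541% higher and limma 0.196% and 0.448%. At an unadjusted p under 0.05, 4 members were lower and 1 higher, where 5.98% of all genes were lower and 3.87% higher, and the members' median was -0.20 against -0.03 for all genes. The most negative of the named genes was Inka1, an inhibitor of the kinase PAK4, with an interaction of -1.39 (SE 0.46, edgeR adjusted p = 0.26), and Dusp6 had -0.75 (SE 0.28, adjusted p = 0.35). Both arms of this contrast were bounded by the rule that chose the members.

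Genotype differences at a single state were not used by the rule and were tested. The rule did bound the group means behind them, by the naive floor and by the cap of 1/4 on both exposed means. In naive mice, 5 of 84 members (5.95%) were called lower in null than in wild type and 0 higher by edgeR, where 2.55% of all genes were called lower and 4.31% higher. At an unadjusted p under 0.05, 12 were lower and 4 higher, where 6.78% of all genes were lower and 10.5% higher. DESeq2 and limma each called 7 members lower and 1 higher, where DESeq2 called 3.45% of all genes lower and 5.25% higher and limma 4.67% and 3.95%. The members' median log2 fold change was -0.06, against 0.01 for all genes. The 5 were Ffar2, Cd300lb, Fut7, Kcne3 and Nckap5l.

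After exposure, 13 members (15.5%) were lower in null mice and 0 higher by edgeR, where 4.04% of all genes were called lower and 4.43% higher. At an unadjusted p under 0.05, 31 were lower and 4 higher, where 9.89% of all genes were lower and 10.02% higher. DESeq2 called 15 members lower and 0 higher (5.14% and 5.51% of all genes) and limma 11 lower and 0 higher (4.66% and 4.17%). The median log2 fold change of members was -0.36, and 65 of 84 lay below 0, while the median over floor genes was 0.00. The share of floor genes below 0 was not counted. Members varied together by library, and neither this median nor this count was repeated with a library left out. Without wild type exposed library 4, 20 members were called lower, and without wild type exposed library 2, 9. Shares over all genes were not counted for these fits. A fit of the exposed libraries alone called 9 members lower (10.7%) and 0 higher, where it called 3.07% of all genes lower and 3.83% higher.

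Markers of other cells moved with the genotype in the same libraries. After exposure, all 5 tested red cell markers were lower in null mice, and their sum over 6 genes ran from 129 to 351 TPM in null and from 370 to 2399 TPM in wild type libraries. The 18 epithelial markers (4 lower, 1 higher) summed to 861 to 1527 TPM in null and 1407 to 3835 TPM in wild type libraries. The 13 neutrophil markers (2 lower, 4 higher among 9 tested) summed to 126 to 189 TPM in null and 86.2 to 118 TPM in wild type exposed libraries, with Camp and Elane at 0 in all 10, and to 170 to 185 and 67.0 to 94.1 TPM in naive ones. Of the 15 alveolar macrophage markers, 6 were higher and 1 lower in null naive mice, and 4 higher and 2 lower in null exposed mice. They summed to 30605 to 33940 TPM in null naive and 26479 to 30566 TPM in wild type naive libraries. The sums were 31492 to 36542 TPM in null exposed and 28655 to 34461 TPM in wild type exposed libraries. The part of all these cells in the genotype differences was not tested.

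Ffar2 showed the most negative naive difference among members. It had 3.57, 3.92, 5.96, 4.48 and 3.44 TPM in null exposed and 9.01, 17.8, 12.2, 8.96 and 15 TPM in wild type exposed libraries, and 38.6, 23.7, 23.5, 23.2 and 21.7 TPM in null naive and 76.9, 66.0, 74.6 and 55.6 TPM in wild type naive libraries. Genotypes did not overlap in either state. The log2 fold change of null over wild type was -1.48 (SE 0.19, edgeR adjusted p = 1.6e-05) after exposure and -1.34 (SE 0.19, adjusted p = 5.8e-05) in naive mice, and 16.4% and 18.4% of the naive level was left in null and wild type mice. Ffar2 was thus lower in null mice before exposure as well.

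Cd300lb, an activating immune receptor of the CD300 family whose promoter is shown above, followed the same order. It had 0.937, 0.533, 0.700, 1.15 and 0.848 TPM in null exposed and 2.38, 2.39, 2.27, 2.29 and 2.37 TPM in wild type exposed libraries, and 5.02, 7.42, 4.10, 5.98 and 3.77 TPM in null naive and 14.6, 13.7, 13.2 and 8.20 TPM in wild type naive libraries. Again no library of either genotype overlapped the other within a state. The log2 fold change was -1.40 (SE 0.20, edgeR adjusted p = 4.7e-05) after exposure and -1.20 (SE 0.19, adjusted p = 0.00025) in naive mice.

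Fut7, the fucosyltransferase that completes selectin ligands on leukocytes, had 2.51, 1.88, 3.25, 2.14 and 3.06 TPM in null exposed and 3.20, 8.59, 6.33, 4.39 and 4 TPM in wild type exposed libraries, and 11.7, 12, 13.1, 13.6 and 9.68 TPM in null naive and 26.8, 22.9, 23.5 and 21.2 TPM in wild type naive libraries. Its log2 fold change was -0.98 (SE 0.22, edgeR adjusted p = 0.0051) after exposure, where 1 wild type library lay within the null range, and -0.90 (SE 0.22, adjusted p = 0.011) in naive mice. Kcne3, an accessory subunit of potassium channels, averaged 3.34 ± 1.17 TPM in null exposed and 6.83 ± 1.80 TPM in wild type exposed (SD, n = 5 each), and 15.3 ± 1.16 TPM in null naive (n = 5) and 29.9 ± 1.35 TPM in wild type naive mice (n = 4). Its log2 fold change was -1.04 (SE 0.21, edgeR adjusted p = 0.0028) after exposure and -0.82 (SE 0.21, adjusted p = 0.02) in naive mice. Nckap5l, a microtubule-associated protein gene, was lower in naive null mice by -0.66 (SE 0.19, edgeR adjusted p = 0.034) and did not pass after exposure (-0.40, adjusted p = 0.23).

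The naive calls of the last 3 were the less stable ones. Nckap5l lost its call in 7 of 19 fits that left out 1 library (each wild type naive library, and null naive libraries 1, 2 and 4, at -0.72 to -0.61). Kcne3 lost it without wild type naive library 2 or null naive library 2 and Fut7 without wild type naive library 1. The count of 5 became 3 without wild type naive library 1 or 2 or null naive library 2, and 8 without wild type exposed library 2. In these fits the shares over all genes were not counted. A fit of the naive libraries alone called 17 members lower (20.2%) and 7 higher (8.33%), where it called 4.07% of all genes lower and 5.70% higher.

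Inka1 had the most negative difference after exposure. It had 1.13, 1.44, 1.40, 0.847 and 0.413 TPM in null exposed and 4.11, 11.0, 2.82, 4.60 and 2.90 TPM in wild type exposed libraries, and 10.2, 8.93, 9.83, 13.1 and 13.6 TPM in null naive and 24.9, 22.2, 18.4 and 17.7 TPM in wild type naive libraries. All null libraries lay below all wild type libraries in both states, with a log2 fold change of -2.23 (SE 0.33, edgeR adjusted p = 9.7e-05) after exposure and -0.84 (SE 0.31, adjusted p = 0.14) in naive mice. Txnip was lower in exposed null mice by -0.94 (SE 0.21, edgeR adjusted p = 0.006), with 1 wild type library inside the null range, and stood at -0.22 (SE 0.22, adjusted p = 0.71) in naive mice. AI467606, a gene with a provisional symbol, had -1.06 (SE 0.20, edgeR adjusted p = 0.00097) and Prr12, a proline-rich nuclear protein gene, -0.50 (SE 0.11, edgeR adjusted p = 0.0048). Arhgap25 (-0.56, SE 0.17, edgeR adjusted p = 0.043) and Fbxo32 (-0.61, SE 0.17, adjusted p = 0.024) passed as well. Arhgap25 lost its call in 12 of 19 fits that left out 1 library (-0.68 to -0.42 over all 19), and Fbxo32 without wild type exposed library 2 or 3. The other 3 called were B3gnt8, Grb7 and 9930111J21Rik2. B3gnt8 lost its call without wild type exposed library 2 or null exposed library 5, and 9930111J21Rik2 without wild type exposed library 2.

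**Figure D4:**
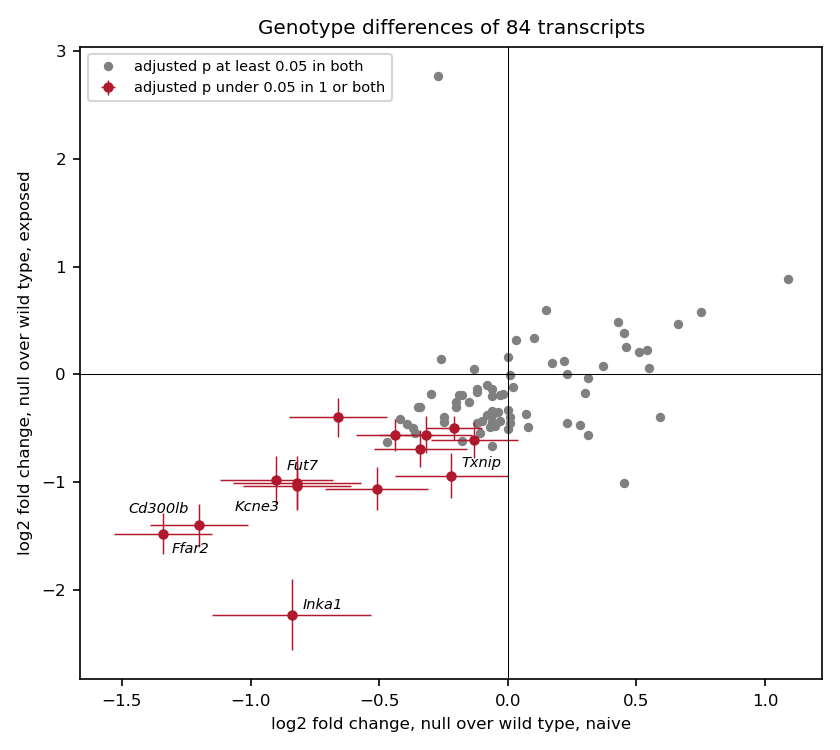
Log2 fold change of null over wild type in exposed mice (y axis) against that in naive mice (x axis) for the 84 transcripts; red points, with SE bars, have an edgeR adjusted p under 0.05 in 1 or both states. All called transcripts lie below 0 in both states, from Inka1 at -2.23 after exposure to Nckap5l at -0.40.

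Genes of 3 pathways were set beside the members. Over all genes tested on exposure, edgeR called 21.4% higher and 23.4% lower in null mice. In wild type mice it called 20.1% higher and 20.2% lower. For limma on TPM the shares over all genes were not counted. Of FOXO targets and quiescence genes, Txnip and Fbxo32 were members. Among the other 31 tested, 12 rose and 10 fell in null mice and 13 rose and 8 fell in wild type mice by edgeR. By limma on log2(TPM + 1), 11 rose and 13 fell in either genotype, so the balance of this list depends on the scaling. The edgeR shares were 38.7% rising and 32.3% falling in null and 41.9% and 25.8% in wild type mice. Bcl2l11, a pro-apoptotic FOXO target, averaged 124 TPM in null exposed, 89.3 TPM in wild type exposed, 26.6 TPM in null naive and 27.7 TPM in wild type naive mice, with log2 fold changes on exposure of 2.61 (SE 0.10) in null and 2.06 (SE 0.10) in wild type. Trp53inp1 fell by 1.38 (SE 0.18) in null and by 1.27 (SE 0.19) in wild type mice on the log2 scale, and Foxo3 by 0.71 and 0.77. The adjusted p-values of edgeR were 4.6e-15 and 8.7e-13 for Bcl2l11, 2.6e-06 and 1.7e-05 for Trp53inp1 and 0.00029 and 0.00027 for Foxo3, with null mice first.

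Of 42 PI3K, AKT and mTOR genes, none was a member. There, 9 rose and 15 fell in null and 14 rose and 13 fell in wild type mice by edgeR. By limma on TPM, 3 rose and 24 fell in null and 2 rose and 22 fell in wild type mice. More fell than rose in null mice by either method, while the balance in wild type mice depends on the scaling. The edgeR shares were 21.4% rising and 35.7% falling in null and 33.3% and 31.0% in wild type mice. In TPM the median floor gene also fell, with a log2 ratio of -0.43 in either genotype. Of 34 TGF-beta and SMAD genes, 12 rose and 3 fell in null and 15 rose and 2 fell in wild type mice by edgeR. By limma on TPM, 8 rose and 12 fell in null and 7 rose and 8 fell in wild type mice. The direction of this list thus depends on the scaling. The edgeR shares were 35.3% rising and 8.82% falling in null and 44.1% and 5.88% in wild type mice. Tgif1, a repressor of SMAD signalling, averaged 265 TPM in null exposed and 221 TPM in wild type exposed, against 39.4 TPM in null naive and 33.5 TPM in wild type naive mice. Skil of the same list also rose, with edgeR log2 fold changes on exposure of 1.77 in null and 1.63 in wild type mice. Ski went the other way, at -1.19 in either genotype.

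At the threshold, the members nearest to it were Nectin4, an adhesion molecule (24.9% left in null and 22.0% in wild type mice), 1700030K09Rik (23.9% and 24.8%) and Vps9d1 (22.3% and 24.6%). Just outside lay Mrm2 and Ulk3, both just over 25% in null mice (22.9% and 24.9% in wild type), and Akap5 (23.3% and 25.1%).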

How the data were processed

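Bulk RNA-seq of lavage cells from 19 mice was analysed. Per the labels' protocols, poly(A) RNA was sequenced from both ends (150 bases per read, 20 M reads intended). STAR, StringTie 2 and GRCm39 are listed, with no options, in the submitters' processing notes; the strand setting is not stated there. The authors deposited estimated counts, as whole numbers not scaled for depth, and TPM, scaled to the same sum per library, for each gene. They summed to between 32.8 and 80.3 M in each library.

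Members were chosen from group mean TPM. Estimated counts were fitted with edgeR 4.0.16 (R 4.3.3; quasi-likelihood F test, two-sided, TMM scaling, filterByExpr at its defaults of 10 reads and 15 in total, all 19 libraries in 1 model of 4 groups), which left 20501 genes, the 84 members among them. Benjamini-Hochberg adjustment ran over all genes fitted, and a gene was called at an adjusted p under 0.05. DESeq2 1.42.0, limma 3.58.1 on log2(TPM + 1) of genes averaging at least 0.5 TPM, no count filter, a replicate block, leaving out each library and fits of only the compared groups were alternatives. Values after ± are SDs of TPM, and SE belongs to log2 fold changes. Percent left is the exposed over the naive group mean of TPM. Span comes from the deposited GRCm39 coordinates; exons and transcript, coding and 3′ lengths come from the GENCODE M21 model with the longest coding part, matched by gene ID for 83 of 84 members and 8989 of 9030 floor genes. No coordinates were converted between builds.

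Named members were the 8 with the lowest ratios, the 8 most abundant, up to 4 per function class or pathway list, those with a genotype call (up to 8 per contrast), the 3 nearest the threshold and the 3 shortest and 3 longest. The members, lists and tests were chosen with earlier results of these data known. Roles, Bcl2l11, Trp53inp1, Foxo3, Tgif1, Skil, Ski, Grb7 and B3gnt8 were chosen after values were seen. Same-numbered mice did not vary together (every correlation between -0.1 and 0.1), and no libraries were identical; nothing in the labels ties a number to a shared litter or day. The spread behind each p-value is that between libraries of the same group, estimated once per gene over all groups of the fit. In the main fit, a naive contrast thus also carries the spread of exposed libraries, and an exposed contrast that of naive ones.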

Additional observations from a re-analysis of the deposited data

Results flagged for a closer look

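For the 47 named members, the highest or lowest library of a group was examined for a gap that sets it apart from the others of its group. Of 188 groups, 16 held such a library, where chance gives about 1 in 20 (9.4 of 188). No explanation was examined for them.

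In null exposed mice, library 3 stood apart above the others for Ccdc166 (1.53 TPM, others 0.122 to 0.351), Itpka (1.48 TPM, others 1.06 to 1.17) and Tfap4 (3.25 TPM, others 0.936 to 1.52). Library 5 stood apart below them for Fbxo32 (0.732 TPM, others 1.45 to 1.63) and Rgs2 (9.25 TPM, others 16.1 to 17.4). In wild type exposed mice, library 2 held 11.0 TPM of Inka1, against 2.82 to 4.60 in the others.

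In null naive mice, library 3 was apart for Gadd45g (553 TPM, others 336 to 364), Gm28036 (0.226 TPM, others 12.7 to 16.3) and Themis2 (112 TPM, others 132 to 139). Library 5 was apart for Cnr2 (44.1 TPM, others 31.4 to 34.0) and Tfap4 (11.2 TPM, others 6.82 to 7.93), and library 1 for Ffar2 (38.6 TPM, others 21.7 to 23.7).

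In wild type naive mice, library 1 was apart for Cnr2 (33.7 TPM, others 30.0 to 30.2) and Tifab (149 TPM, others 126 to 127), library 3 for AI467606 (48.2 TPM, others 53.5 to 54.1) and library 4 for Mbd4 (15.5 TPM, others 12.2 to 12.6).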

How the results depend on the processing

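Membership depended on the scale and thresholds. The 84 members became 27 by TMM-scaled CPM, 51 with a naive floor of 10 TPM, 32 at 1/5 and 240 at 1/3, and 67 to 106 when each library was left out. Calls lower in naive null mice (5) ran from 3 to 8 and calls higher (0) from 0 to 1 when each library was left out, with 17 lower and 7 higher for only the groups compared, and 1 higher each for DESeq2 and limma. After exposure, 13 lower ran from 9 to 20, and 0 higher from 0 to 1, when each library was left out. For only the groups compared, 9 were lower and 0 higher after exposure. The causes of these moves were not tested. The fit with the replicate block called 5 members lower in naive and 12 in exposed null mice. The numbers are not shown to pair the mice. Shares over all genes were not counted for this fit or for those that left out a library. Interaction calls were 0 under every alternative run. The members' median span over that of floor genes, 0.529, became 0.954 for the relative transcript length, 0.966 for transcript and 0.882 for coding length (the last 2 chosen after seeing the data). Over 18 genotype calls and 432 settings, 37 settings lost the call, for 8 of the 18, and none changed sign. Protein length and an interaction fit of fewer groups were not run.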
